A study of Glycine max with 12 samples.

Results

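A set of 97 soybean genes was lower in flower buds of *GmMYB21a-OE2* (OE2) than of the recipient TL1 at normal temperature (NT), while the lines stayed close to each other at high temperature (HT). The set was chosen by a rule on measured values. For every gene the counts were divided by the library total and expressed as CPM, counts per 1000000 counts of the library, and log2(CPM + 1) was averaged over the 3 libraries of a group. A gene entered when OE2 minus TL1 was -0.7 or less at NT and between -0.4 and 0.4 at HT. Of the 52872 genes with a Glyma identifier in a table of 53808 genes, 208 met the NT limit. Of these, 111 were left out by the HT limit, 33 of them lower and 78 of them higher in OE2 at HT. The mirror rule, for genes higher in OE2 at NT only, found 42 genes. Both line differences, and the change in line difference between temperatures, are therefore a description of how the set was made and carry no test.

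RNA-seq was made on flower buds taken at upper, middle and lower positions of the plants. There were 4 groups of 3 libraries, described as biological replicates. The groups were OE2 at HT, TL1 at HT, OE2 at NT and TL1 at NT. The paper's growth section gives HT as 40 °C by day and 34 °C by night for 5 days, and normal growth as 28 °C and 22 °C. Its RNA-seq section does not state the day of sampling. OE2 is a single transgenic line that overexpresses *GmMYB21a* from the vector pTF101.1 in TL1 (Tianlong No. 1), a restorer line for cytoplasmic male sterility, so all libraries share the TL1 background. The promoter driving the transgene was not given in the sources used here, and with a single line the transgene cannot be told apart from its insertion site or from other changes carried by that line. The treatment label read high temperature for all 12 libraries and went against the titles of the 6 NT libraries. The titles were followed.

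R2R3-MYB proteins are plant transcription factors that bind DNA through a pair of MYB repeats. In Arabidopsis, MYB21 acts with its close relative MYB24 downstream of jasmonate in filament growth, anther opening and pollen maturation. Flower buds hold sepals, petals, anthers with tapetum and pollen, and ovules in proportions that shift with bud age. In these bulk samples, fewer cells of a type and less RNA per cell cannot be told apart.

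The line label was checked on *GmMYB21a*, taken as Glyma.19G006500. Its level was 12.1, 12.2 and 10.5 CPM in OE2 at HT, against 1.12, 0.811 and 0.909 CPM in TL1 at HT. At NT it was 40.3, 36.3 and 36.7 CPM in OE2, against 6.32, 5.25 and 5.43 CPM in TL1. The gene was higher in OE2 at both temperatures with no overlap of the libraries, and lower at HT than at NT in each line. Library totals ranged from 32058303 to 39654590 counts. The third OE2 HT library stood further from its replicates than any other library did (chi-square per degree of freedom over genes of 11.7 and 14.8, against 2.71 to 5.08 for the pairs without it), and values that moved by more than 1.5 times without it are given beside the result. As a tissue check, 3 genes annotated with the words sporopollenin or tapetum were looked up, and they were counted in all 12 libraries. Other tissue words were not searched. They come from the study's own list of genes that differed between the lines at HT, and were lowest in TL1 at HT. Glyma.01G073600 averaged 17.4 CPM in OE2 and 3.51 CPM in TL1 at HT, with 20.2 CPM in OE2 and 24.3 CPM in TL1 at NT. Glyma.11G097900 averaged 7.57 CPM in OE2 and 1.63 CPM in TL1 at HT, with 5.81 CPM in OE2 and 7.80 CPM in TL1 at NT. Glyma.07G043300 averaged 3.58 CPM in OE2 and 0.678 CPM in TL1 at HT, with 5.05 CPM in OE2 and 4.36 CPM in TL1 at NT. Their line difference at HT follows from that list, and the closeness of the 97 genes at HT follows from the rule, so no comparison is drawn. The part of cell makeup in the results was not tested.

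None of the 97 identifiers was paired with a name or a function in the tables used here. The only annotation with Glyma identifiers covered genes that differed between the lines at HT in the study, which the HT limit tends to leave out. The genes are therefore described by identifier, level and position, with no role given. CPM is not corrected for gene length, so levels are compared between libraries and not between genes.

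The genes mostly had modest counts. The median over the 97 genes of the mean level was 3.62 CPM in OE2 at HT, 3.99 CPM in TL1 at HT, 2.96 CPM in OE2 at NT and 5.93 CPM in TL1 at NT. Only 28 genes averaged at least 10 CPM over the 12 libraries. At NT the line difference ran from -2.37 to -0.70 on the log2(CPM + 1) scale with a median of -0.81, and 15 genes lay at -1 or below. All 3 OE2 libraries were below all 3 TL1 libraries in 96 genes at NT, which the rule brings about, and wholly above them in 0, against 19.7% and 8.88% of all genes tested. At HT the difference ran from -0.38 to 0.39 with a median of 0.02. There the lines overlapped in 68 genes, OE2 was wholly below TL1 in 11 (12.3% of all genes tested) and wholly above it in 18 (18.3%).

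**Figure D1:**
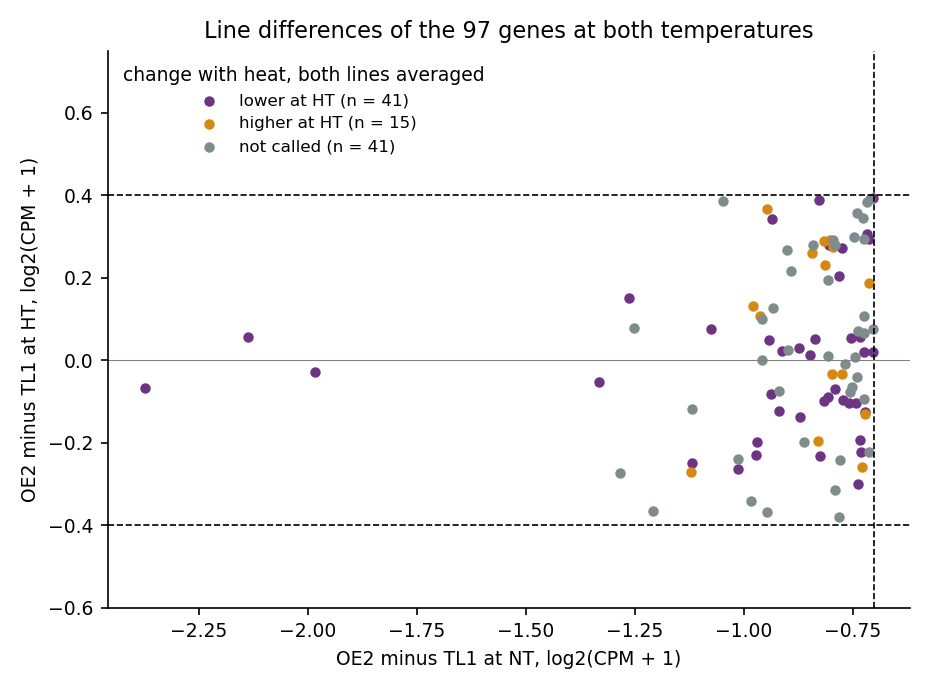
OE2 minus TL1 at NT (x axis) and at HT (y axis), both as differences of mean log2(CPM + 1), for the 97 genes, coloured by the change with heat averaged over both lines. Dashed lines are the limits of the rule; 3 genes stand apart on the left, with Glyma.12G233000 at -2.37, and most of the others lie between -1 and -0.70.

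A small difference at HT did not mean the same thing in all of these genes. In 25 genes both lines averaged less than 1 CPM at HT, where log2(CPM + 1) leaves little room for a difference, and 70 genes averaged at least 1 CPM in both lines at HT. On the fold scale of the edgeR fit, which needs no added 1, 87 of the 97 genes passed the filter on low counts at HT. Their line difference at HT ran from -1.38 to 0.93 on the log2 scale. None passed an adjusted p of 0.05 with a 2-fold change in edgeR's quasi-likelihood test, against 1.94% of all genes higher and 0.475% lower in OE2, and none did so in either direction by DESeq2. With no fold limit, 3 were higher and 4 lower (7.37% and 3.7% of all genes), and without the third OE2 HT library 1 gene passed as lower. At NT the same test called 48 of the 97 lower and 0 higher (0.71% and 0.24% of all genes), since a fold of 2 is a stricter limit than the rule for genes well above 1 CPM. With no fold limit it called 95 lower and 0 higher (4.86% and 5.97%). These counts describe the rule and support nothing further.

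The gene furthest apart at NT was Glyma.12G233000. It had 9.71, 10.4 and 9.58 CPM in OE2 and 11.3, 8.49 and 11.8 CPM in TL1 at HT. Its NT level was 18.6, 16.5 and 15.4 CPM in OE2, against 88.9, 90.1 and 94.7 CPM in TL1. TL1 at NT thus stood alone, and the other 9 libraries lay between 8.49 and 18.6 CPM. Glyma.12G231800, on the same chromosome, had a similar shape. It had 10.1, 9.43 and 10.3 CPM in OE2 and 10.9, 8.80 and 11.4 CPM in TL1 at HT. At NT it had 24.3, 22.3 and 21.0 CPM in OE2, against 56.7, 57.6 and 60.2 CPM in TL1. For both genes the lines overlapped at HT. Glyma.13G328400 followed the same order, with 7.88 to 10.1 CPM in OE2 at NT, against 23.3 to 24.1 CPM in TL1 at NT, and no more than 3.15 CPM in any HT library.

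In 3 genes nearly all counts came from TL1 at NT. Glyma.02G187850 had 3.68, 3.79 and 3.99 CPM there, against 0.190, 0.109 and 0 CPM in OE2 at NT, and no HT library exceeded 0.184 CPM. Taking 3 counts per library as the floor, TL1 at HT was at least 45.7-fold lower than TL1 at NT. Glyma.07G231200 had no count in 9 libraries and 25, 38 and 33 counts in TL1 at NT, so OE2 at NT was at least 11.6-fold lower than TL1 at NT. Glyma.03G148900 had 0, 1 and 0 counts in OE2, against 35, 24 and 20 counts in TL1 at NT, a level in OE2 at least 9.40-fold lower. Both of the last genes averaged less than 1 CPM even in TL1 at NT, the only genes of the set that did.

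The 97 genes are sorted by 3 orders of level, as a description. The rule set TL1 above OE2 at NT and kept the lines close at HT. The HT groups could therefore lie only below, above, between or across the NT levels. In 45 genes TL1 at NT was highest, OE2 at NT came next and both HT groups were below. In 26 genes both HT groups were above TL1 at NT, and OE2 at NT was lowest. In 14 genes TL1 at NT was above both HT groups and OE2 at NT below them, and 12 genes had another order. The change with heat was then tested. Averaged over both lines, this contrast is orthogonal to the 2 line differences that the rule used. It is still not free of the rule. A gene near 0 CPM at HT met the HT limit readily, but needed a measurable level in TL1 at NT. The rule therefore favours genes that fall with heat among those with low HT levels, and the count that fell is read with this limit.

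At HT, averaged over both lines, 41 of the 97 genes fell and 15 rose by at least 2-fold at an adjusted p under 0.05 in edgeR's quasi-likelihood test over all 12 libraries. The same calls were made for 14.5% of all 42839 genes tested in the lower and 9.03% in the higher direction. A further 41 genes were not called. With no fold limit 52 were lower and 33 higher (38.2% and 38.1% of all genes). The median log2 change with heat was -0.67 in the set and 0.00 over all genes tested, and fitted values of single genes ran from -4.28 to 2.20, the lowest of them on few counts. All 6 HT libraries were below all 6 NT libraries in 30 genes (23.7% of all genes) and above them in 18 (28.6%). Without the third OE2 HT library, 42 genes were lower and 16 higher.

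**Figure D2:**
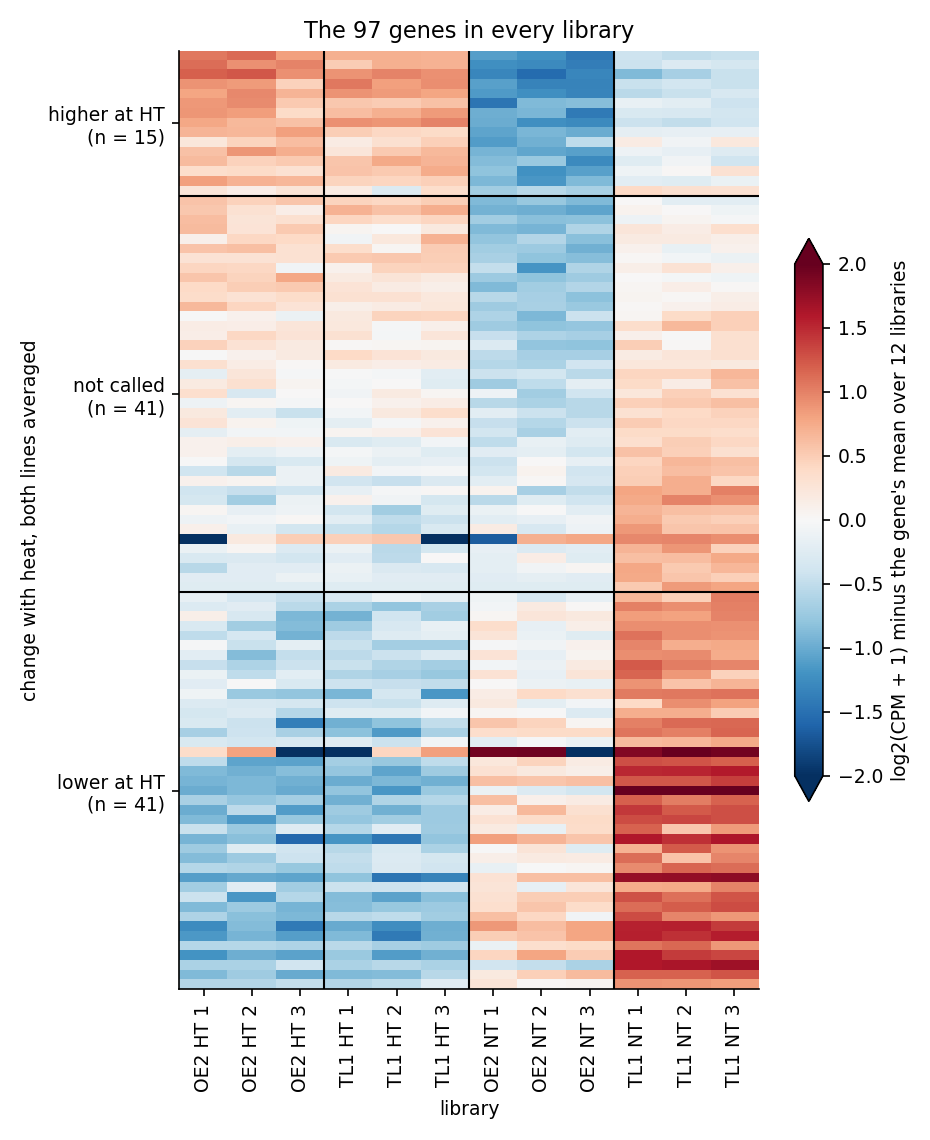
Level of each of the 97 genes in each of the 12 libraries, as log2(CPM + 1) minus the gene's own mean, with genes grouped by the change with heat averaged over both lines and ordered by its size. The OE2 NT columns are the lowest in the 15 genes that rose with heat, and lie between the HT and the TL1 NT columns in the 41 that fell; a pair of genes breaks the pattern, each with single libraries far from its replicates.

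The heat calls are also given by level at HT, as a description, since that level is itself part of the change with heat. Among the 70 genes with at least 1 CPM in both lines at HT, 20 fell, 14 rose and 36 were not called, with a median log2 change of -0.01. Among the other 27 genes 21 fell, 1 rose and 5 were not called, with a median of -2.68. Close to 0 CPM a line difference cannot reach 0.4 on the scale of the rule, so such genes met the HT limit readily. A gene that met the NT limit needed a measurable level in TL1 at NT, so one near 0 CPM at HT had to be lower there, and the split supports nothing further.

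The 41 genes that fell had a median level of 1.31 CPM in OE2 and 0.980 CPM in TL1 at HT, against 2.99 CPM in OE2 and 6.28 CPM in TL1 at NT. All 41 had the order TL1 NT, OE2 NT, HT, which the rule and the 2-fold limit together favour. Glyma.13G295900 had 0, 0 and 3 counts in OE2 and 0, 2 and 9 counts in TL1 at HT, against 29, 19 and 20 counts in OE2 and 64, 59 and 53 counts in TL1 at NT. With 3 counts per library as the floor, OE2 at HT was at least 7.77-fold lower than OE2 at NT. The averaged fit called it lower (adjusted p = 9.2e-08, edgeR), but its log2 change rests on few HT counts, at -4.28 with all libraries, -5.80 without the third OE2 HT library and -5.18 without the third TL1 HT library. Glyma.19G186700 had at most 0.364 CPM at HT, against at least 1.30 CPM in OE2 and 3.53 to 3.81 CPM in TL1 at NT (log2 change -4.24 ± 0.33 SE, and -4.88 without the second OE2 HT library). For both genes all HT libraries lay below all NT libraries. Glyma.13G050100 fell by 3.82, Glyma.02G266500 by 3.60 and Glyma.10G130600 by 3.40 on the log2 scale, also with no overlap of the temperatures.

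Glyma.06G137000 had the highest counts among the genes that fell. It had 20.6, 21.0 and 20.1 CPM in OE2 and 19.7, 21.0 and 20.1 CPM in TL1 at HT, so that the lines overlapped there. The NT level was 61.5, 59.4 and 61.2 CPM in OE2, against 96.4, 95.9 and 106 CPM in TL1. It fell with heat by 2.01 ± 0.04 (SE) on the log2 scale (adjusted p = 6.32e-19, edgeR), and its NT difference of -0.70 was among the 3 closest to the limit. Glyma.12G233000 fell by 2.02 ± 0.07 and Glyma.12G231800 by 1.91 ± 0.06 on the same scale.

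The 15 genes that rose had a median level of 11.2 CPM in OE2 and 11.3 CPM in TL1 at HT, against 2.49 CPM in OE2 and 4.90 CPM in TL1 at NT. In 14 of them both HT groups were above TL1 at NT, which was above OE2 at NT. The rule and the 2-fold limit favour this order too. Glyma.11G064800 had 112, 103 and 97.8 CPM in OE2 and 123, 121 and 130 CPM in TL1 at HT. At NT it had 32.2, 27.3 and 26.2 CPM in OE2, against 48.1, 46.1 and 49.2 CPM in TL1. It rose by 1.55 ± 0.05 on the log2 scale (adjusted p = 1.02e-16, edgeR), and OE2 lay below TL1 at both temperatures with no overlap, and OE2 minus TL1 was -0.26 at HT and -0.73 at NT on the scale of the rule. Glyma.08G152500 went the other way at HT, with 63.5, 58.0 and 56.6 CPM in OE2, against 48.7, 48.1 and 49.6 CPM in TL1, and had 18.5, 15.2 and 18.7 CPM in OE2, against 30.4, 29.9 and 32.3 CPM in TL1 at NT. Lines that the rule counts as close at HT could therefore still be separated beyond the spread of their libraries, in either direction.

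The largest rises with heat were those of Glyma.02G230800 (log2 change 2.20 ± 0.11), Glyma.18G238100 (2.16 ± 0.11), Glyma.02G288700 (2.13 ± 0.08), Glyma.02G239800 (1.84 ± 0.09) and Glyma.02G100300 (1.71 ± 0.06). Glyma.18G238100 had 8.90, 7.64 and 8.06 CPM in OE2 and 5.49, 6.52 and 6.39 CPM in TL1 at HT. At NT it had 0.948, 0.895 and 0.748 CPM in OE2, against 2.40, 2.79 and 2.59 CPM in TL1. Its NT level in OE2 was the lowest of the 4 groups, and its HT level in OE2 the highest. Of these 5 genes 4 lie on chromosome 2, which as a whole was lower in OE2 at NT, as described below. In the order listed, the NT differences of these 4 were -0.80, -0.71, -0.83 and -0.80. None of the 4 met the NT limit once the shift of the chromosome was taken out.

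Some of the 41 genes not called passed an adjusted p of 0.05 in edgeR with a change under 2-fold. Others had close to the same mean at both temperatures. Glyma.02G059500 had 8.42, 9.31 and 8.82 CPM in OE2 and 9.18, 9.66 and 10.2 CPM in TL1 at HT. At NT it had 5.83, 5.48 and 5.84 CPM in OE2, against 13.0, 13.5 and 14.3 CPM in TL1. The HT libraries of both lines lay between the NT libraries of the lines, and the average change with heat was -0.01 ± 0.07 (adjusted p = 0.948, edgeR). Glyma.03G098600 (-0.03 ± 0.06) and Glyma.11G207500 (-0.03 ± 0.09) had the same order. Glyma.04G134200 had 2.25, 2.22 and 2.47 CPM in OE2 and 2.40, 1.88 and 2.15 CPM in TL1 at HT, against 0.786, 0.678 and 0.720 CPM in OE2 and 2.73, 3.59 and 3.06 CPM in TL1 at NT. Its average change with heat was 0.48 ± 0.14 (adjusted p = 0.0044, edgeR), under 2-fold. In the fits of each line, Glyma.02G059500, Glyma.03G098600 and Glyma.04G134200 were lower with heat in TL1 (log2 changes of -0.50, -0.51 and -0.56) and higher in OE2 (0.50, 0.47 and 1.53), each at an adjusted p under 0.05 in edgeR. Glyma.11G207500 had -0.27 in TL1 (adjusted p = 0.0293) and 0.22 in OE2 (adjusted p = 0.206, edgeR). The rule favours these opposite signs, which are given as a description.

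**Figure D3:**
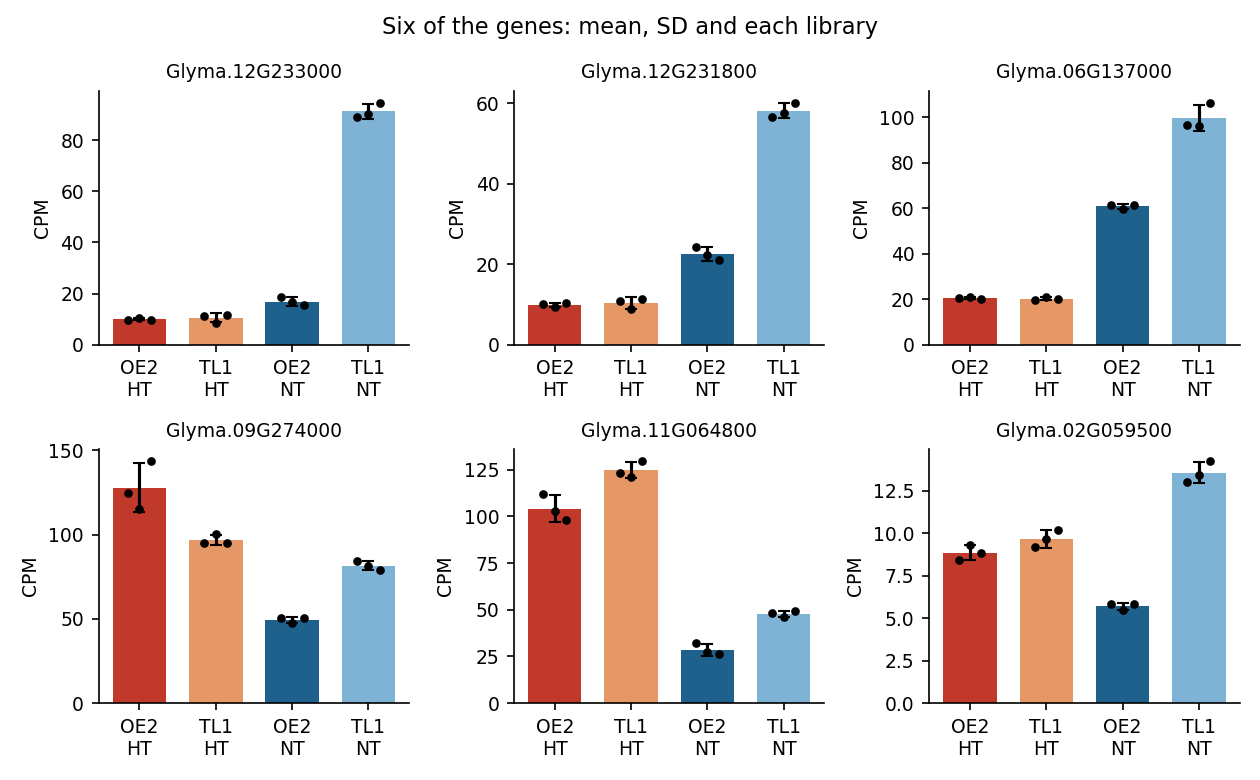
CPM of 6 of the genes in the 4 groups, as the mean (bar), the SD (error bar) and each of the 3 libraries (points), on separate axes that start at 0. Glyma.12G233000, Glyma.12G231800 and Glyma.06G137000 are highest in TL1 at NT, Glyma.09G274000 and Glyma.11G064800 are highest at HT, and Glyma.02G059500 has HT levels between those of the lines at NT.

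Within each line the change with heat depends on a group the rule set high or low, and is given only as values. In TL1, 53 of the 97 genes were called lower and 7 higher at HT (14.7% and 8.55% of all genes), with a median log2 change of -1.33. In OE2, 27 were called lower and 30 higher among the 94 tested (14.3% and 10.6%), with a median of -0.14. These comparisons share no control samples with each other, but each shares a group with the NT line difference used by the rule. By the interaction term, OE2 minus TL1 was higher at HT than at NT in 63 of the 97 genes (adjusted p under 0.05, edgeR, 5.5% of all genes). The rule fixes this direction, since it takes a negative difference at NT and a small one at HT. The lines thus lay closer together at HT. OE2 minus TL1 was lower at HT than at NT in 0 of the genes by edgeR, with no fold limit, and likewise by DESeq2 (6.91% of all genes by edgeR).

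Genes just inside and just outside the limits had close values. At the NT limit Glyma.10G253900 (-0.70) and Glyma.07G243500 (-0.70) were inside, while Glyma.09G080100, Glyma.20G137700 and Glyma.17G156200, each at -0.70 after rounding, were outside. At the HT limit Glyma.07G243500 (0.39), Glyma.09G274000 (0.39) and Glyma.13G173300 (0.39) were inside, and Glyma.02G282100 (0.40), Glyma.05G128300 (-0.40) and Glyma.05G220100 (-0.41) outside. Glyma.09G274000 had 125, 115 and 144 CPM in OE2 at HT, against 94.9, 101 and 95.3 CPM in TL1 at HT, with no overlap. Its NT libraries had 50.3, 47.5 and 50.8 CPM in OE2, against 84.3, 81.6 and 79.0 CPM in TL1. It therefore met the HT limit with a line difference at HT that exceeded the spread of its libraries.

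The genes of the set varied more among replicates than all genes did by the median, and 2 of them stood out as uneven. The median coefficient of variation over the 97 genes was 15.8% in OE2 and 14.0% in TL1 at HT, and 16.1% in OE2 and 7.54% in TL1 at NT. Over all genes of at least 0.5 CPM, whose median level was higher, it was 10.2%, 7.76%, 7.85% and 6.94% in the same 4 groups. The uneven pair, Glyma.19G111800 and Glyma.02G128100, was picked out after the values were seen. Glyma.19G111800 had 19.9, 27.4 and 0 CPM in OE2 and 0, 20.9 and 27.8 CPM in TL1 at HT, with 60.7, 61.4 and 0 CPM in OE2 and 57.5, 64.8 and 60.7 CPM in TL1 at NT. It dropped to no count in 3 libraries of 3 different groups and was the only gene of the set whose lines overlapped at NT.

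In the same 3 libraries the nearby Glyma.19G111900, with 1 listed gene between them, was at its highest, with 28.8 CPM in the third OE2 HT library, 37.0 CPM in the first TL1 HT library and 65.4 CPM in the third OE2 NT library. It had 5.49 to 21.5 CPM in the other 9 libraries. Summed over both genes the line difference was -0.24 at HT and 0.02 at NT, so the NT difference of -1.98 of Glyma.19G111800 alone was absent from the sum. Its fall with heat (-1.72 ± 0.67, adjusted p = 0.025, edgeR) was not called by DESeq2 (adjusted p = 0.425), nor by edgeR without the first or the second OE2 NT library (adjusted p = 0.0603 and 0.0703).

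Glyma.02G128100 had 3.48, 26.4 and 32.7 CPM in OE2 and 32.3, 33.6 and 4.91 CPM in TL1 at HT, with 6.50, 38.2 and 39.9 CPM in OE2 and 45.5, 46.1 and 44.2 CPM in TL1 at NT. In the 3 libraries where it was low, its neighbour Glyma.02G128000 was higher than in the other libraries of the same group. Summed over the pair, the line difference was 0.13 at HT and -0.21 at NT, against -1.01 at NT for Glyma.02G128100 alone. Whether reads were assigned to a different member of each pair in these libraries was not tested. Without both genes 40 genes of the set fell and 15 rose with heat, and the median log2 change was -0.64.

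**Figure D4:**
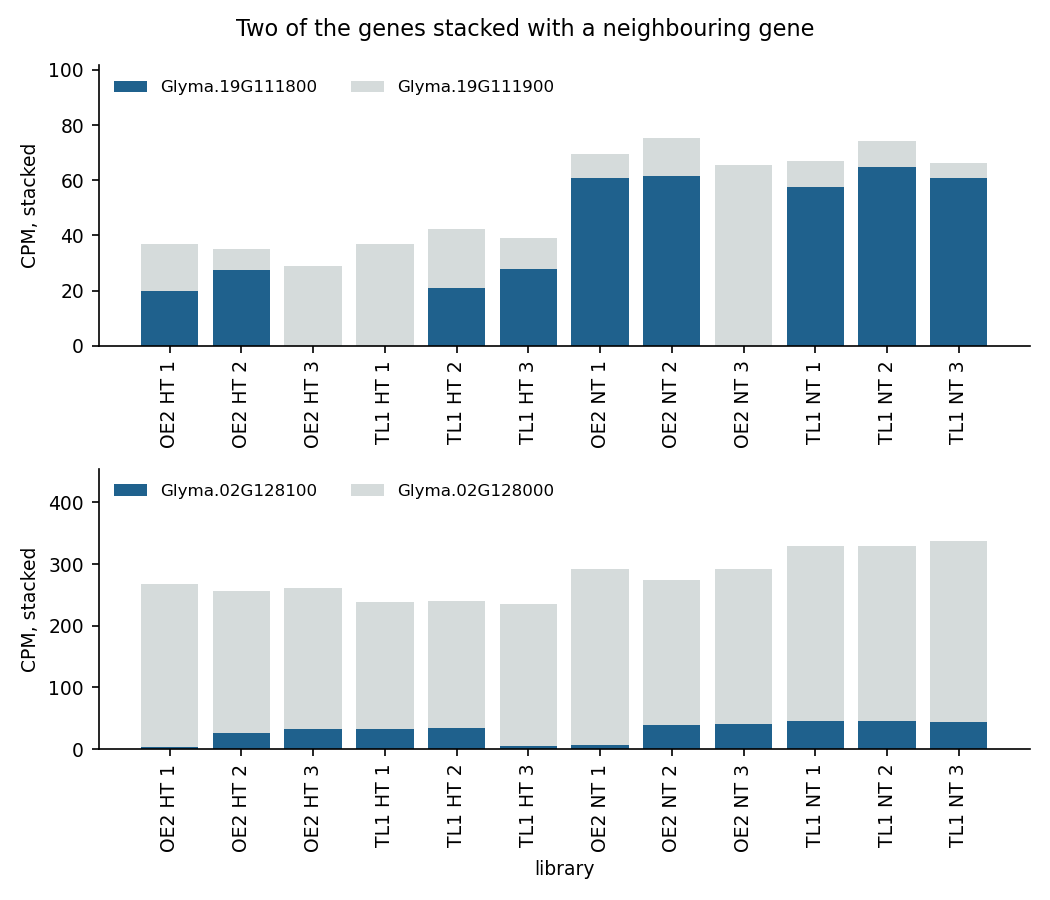
CPM of Glyma.19G111800 (top) and Glyma.02G128100 (bottom), each stacked with its neighbouring gene, in the 12 libraries. The dark part disappears or shrinks in 3 libraries of each panel while the height of the stack stays close to that of the other libraries of the group.

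Position in the genome was not used by the rule and could be read from the identifiers. Chromosome 2 held 13 of the 97 genes, 13.4% of the set against 5.69% of the listed genes. Chromosome 7 held 10 (10.3% against 4.93%), chromosome 12 held 9 (9.28% against 4.40%) and chromosome 18 held 9 (9.28% against 5.19%). Only 2 pairs were neighbours with no more than 2 listed genes between them. Glyma.17G030100 and Glyma.17G030200 were adjacent, and their average changes with heat were -0.73 ± 0.11 and 0.25 ± 0.05. Glyma.05G225600 and Glyma.05G225900 changed in opposite directions, by -3.27 ± 0.27 and 0.78 ± 0.09 (both at an adjusted p under 0.05 in edgeR, the second under 2-fold).

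Chromosome 2 as a whole was lower in OE2 at NT, a pattern looked for after the values were seen. Over its 1536 genes with a mean of at least 5 CPM, the median line difference was -0.20 at NT on the log2(CPM + 1) scale. The medians of the other 19 chromosomes lay between -0.05 and -0.01. At HT the median of chromosome 2 was 0.00, within the range of -0.02 to 0.02 of the others. At NT, 90.4% of the genes of chromosome 2 were lower in OE2, against 52.4% to 64.5% on the other chromosomes. These values use library totals, with which all chromosome medians at NT were below 0. With CPM from TMM library sizes, described below, the NT median was -0.15 for chromosome 2 and 0.01 to 0.05 for the others.

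The shift ran along the whole chromosome and was present in each OE2 NT library. In windows of 100 consecutive genes, the 15 windows of chromosome 2 had NT medians of -0.24 to -0.14, and each was below all 255 windows of the other chromosomes, the lowest of which was at -0.10. Relative to TL1 at NT, chromosome 2 lay below the other chromosomes by -0.17, -0.15 and -0.17 in the 3 OE2 NT libraries. In the other 9 libraries the same value lay between -0.011 and 0.012. All 3 OE2 NT libraries thus stood apart from the other 9.

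**Figure D5:**
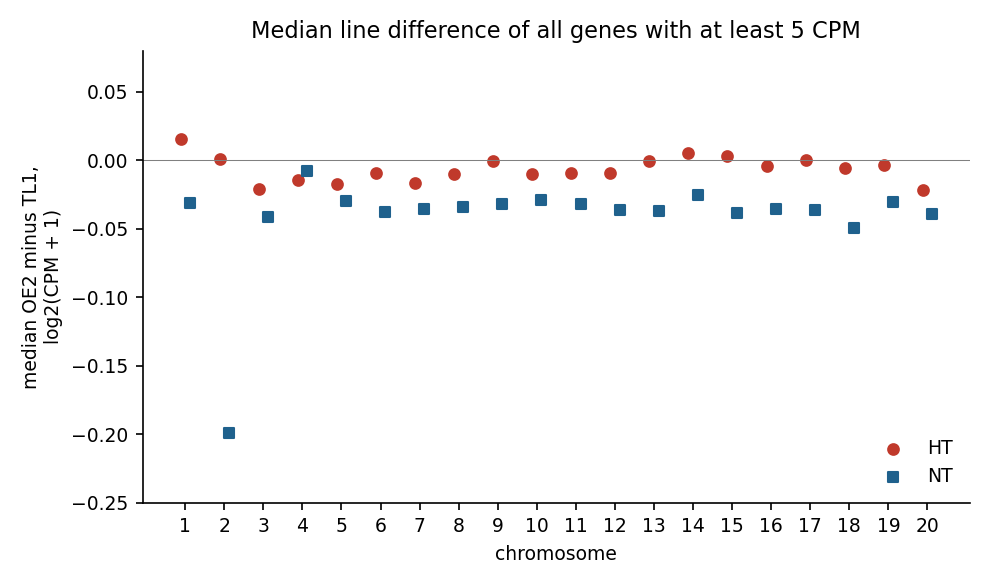
Median over genes of OE2 minus TL1, in log2(CPM + 1), for each of the 20 chromosomes at HT (circles) and at NT (squares), over genes with a mean of at least 5 CPM. Chromosome 2 is at -0.20 at NT and at 0.00 at HT, while the other 19 chromosomes lie between -0.05 and -0.01 at NT.

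The membership of the chromosome 2 genes rested in part on this shift. When the median difference of each chromosome was brought to that of all genes, 5 of the 13 genes on chromosome 2 still met both limits. On chromosome 7, 9 of 10 did, and on chromosomes 12 and 18 all 9 did. The step moved chromosome 2 most and the others little, so a larger loss on chromosome 2 was built in. Over the genome 97 genes met the limits after this step, 88 of them from the original set. Chromosome 2 held 6 of these 97, against 13 of the original set, and holds 5.69% of the listed genes. The larger share of chromosome 2 in the original set was not seen after this step. Many of the genes lay close to the NT limit, so the step could remove members of any chromosome moved this way. The shift was taken from genes with at least 5 CPM, and most of the 97 genes averaged less. What set the level of chromosome 2 in the OE2 NT buds was not tested.

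The 13 genes on chromosome 2 did not share a change with heat. Of these genes 4 fell, 4 rose and 5 were not called. Apart from Glyma.02G187850, whose few counts outside TL1 at NT fix no fold, the log2 changes ran from -3.60 for Glyma.02G266500 to 2.20 for Glyma.02G230800. Glyma.02G288700, which rose, had 27.2 to 34.5 CPM in OE2 and 26.9 to 28.9 CPM in TL1 at HT, with 4.18 to 5.12 CPM in OE2 and at least 7.13 CPM in TL1 at NT. Its NT difference of -0.71 lay close to the limit, whereas those of Glyma.02G187850 (-2.14) and Glyma.02G059500 (-1.12) were several times the size of the shift of the chromosome.

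How firmly the set is drawn depended on scale. With CPM from TMM library sizes, which were smaller than the totals for OE2 at NT (factors of 0.946 to 0.970) and larger for OE2 at HT (1.03 to 1.06), 76 genes met the rule and 73 of them were in the set. When each library was left out in turn, 96 to 124 genes met the rule, and 45 of the 97 did so each time.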

How the data were processed

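The authors deposited 1 table of raw counts of reads per gene for 12 RNA-seq libraries, with 53808 genes of which 936 were new genes with no Glyma identifier. StringTie 2.1.3b is listed among the submitters' tools. The aligner, counting settings, genome build and strand use are not given in the sources used here, so overlapping genes and close copies may share reads. Each library held at least 32058303 counts.

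CPM for the rule used column sums (pseudocount 1). Fold changes were fitted with edgeR 4.0.16 in R 4.3.3 (TMM, filterByExpr, quasi-likelihood test, Benjamini-Hochberg adjustment over all genes tested), and genes were called at an adjusted p under 0.05 and a change of 2-fold or more in either direction. The heat contrast averaged both lines over 12 libraries. Line differences used 6 libraries each. The heat contrast was tried on simulated counts with changes placed in genes of at least 1 CPM. That simulation did not apply the rule and changed no gene of lower level. Alternatives were DESeq2 1.42.0, other scalings, filters, pseudocounts, a replicate block and leaving out each library. P-values measure the spread between libraries.

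Genes named are the 10 with the most negative NT difference, the 5 with the highest mean CPM, the 5 largest heat changes in each direction with no overlap of temperatures, genes at the limits, neighbours, the 3 with a mean of at least 5 CPM and a heat change closest to 0, and *GmMYB21a*. Others were chosen after their values were seen. The gene set, the tests and the naming rule were chosen with earlier results of these data known. Word lists of functions were not counted, since 0 of the 97 identifiers had an annotation in the sources used, which covered only genes that differed between the lines at HT. No sequences were used here.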

Additional observations from a re-analysis of the deposited data

Results flagged for a closer look

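The line difference of 63 of the 97 genes differed between temperatures by the interaction term (adjusted p under 0.05, edgeR, 12 libraries), each with OE2 minus TL1 greater at HT than at NT. The rule that chose the genes fixes this direction, so the count is a description. Of these 63 genes, 17 fell with heat, 15 rose and 31 were not called in the heat contrast averaged over both lines.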

How the results depend on the processing

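The set depends on the scale of the rule. With a pseudocount of 0.5 or of 0.1 the cap of 200 genes was reached, with 87 and 35 of the 97 among them, and an HT limit of 0.2 left 54. The heat calls were 40 to 43 lower and 14 to 16 higher when each library was left out, and the median log2 heat change was -0.73 to -0.64. The median was -0.0105 in genes with at least 1 CPM in both lines at HT. With no fold limit, calls were 33 higher with heat, 20 higher with heat in TL1 (35.5% of all genes), 95 lower in OE2 at NT, and 3 higher and 4 lower in OE2 at HT. A fold limit of 2 on the interaction left 39. Fitting all 12 libraries together called 1 gene lower in OE2 at HT.

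When each library was left out, the other counts of calls were 45 to 51 lower in OE2 at NT, 0 to 1 lower in OE2 at HT, 56 to 64 with a higher and 0 to 1 with a lower interaction, 53 to 55 lower and 7 to 9 higher with heat in TL1, and 23 to 28 lower and 27 to 31 higher with heat in OE2. In none of these fits was a gene called higher in OE2 (0 at HT and 0 at NT). The count of 1 came without OE2 HT replicate 3 for the line difference and without OE2 HT replicate 2 for the interaction.

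Replicate numbers did not pair the libraries, since deviations of same-numbered libraries correlated at -0.14 to 0.12 and 1 of 18 pairs exceeded 0.1. A replicate block gave 41 lower and 15 higher with heat, 49 lower at NT and 61 interactions.

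Of the 34 named genes, 5 changed sign or call under any alternative. The sign turned in 3 genes close to 0. Glyma.02G059500 was at 0.0198 without the filter, 0.00287 on Glyma genes alone and -0.0343 to 0.0187 when each library was left out. Leaving out each library gave -0.0711 to 0.00968 for Glyma.03G098600 and -0.104 to 0.0389 for Glyma.11G207500. Glyma.10G253900, just under a 2-fold rise, crossed that limit, and Glyma.19G111800 lost its call. The causes were not tested.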
